A study of Rattus norvegicus with 6 samples.

Results

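Transcripts of the opioid and tachykinin neuropeptide systems were compared between 2 rat strains in cells cultured from the brainstem. The spontaneously hypertensive rat (SHR) is an inbred model of high blood pressure, and Wistar Kyoto (WKY) is the related strain with normal pressure that serves as its control. The members were Penk, Pdyn, Pomc, Oprm1, Oprd1, Oprk1, Tac1 and Tacr1, and every probe whose only gene symbol in the platform annotation is one of these names was taken, whatever its signal. This gave 9 probes of 7 of the 8 genes, out of 33849 probes, of which 16753 carry 1 gene symbol and together name 12198 genes. Oprk1 had 3 probes and the 6 other matched genes had 1 probe each. Pomc, the precursor of beta-endorphin and of the melanocortins, had no probe with that single symbol and was not analysed here. Each strain had 3 single-colour CodeLink arrays, and each array held RNA of cells from 3 dishes combined. The cultures are described only by strain and tissue of origin. The sources used here do not give the age of the animals, the days in culture or which litters entered which pool, although the design text calls the arrays of a strain biological replicates. The p-values therefore set each strain difference only against the spread between these pools.

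Opioid peptides are cut from large precursors. Proenkephalin (Penk) gives the enkephalins and prodynorphin (Pdyn) gives the dynorphins, and these act on the mu (Oprm1), delta (Oprd1) and kappa (Oprk1) opioid receptors, which couple to inhibitory G proteins. Tac1 encodes the precursor of substance P and neurokinin A, and substance P acts mainly on the neurokinin 1 receptor (Tacr1), which couples to Gq and raises intracellular calcium. In the brainstem both systems are found in the nucleus of the solitary tract and in the ventrolateral medulla, where cardiovascular reflexes are relayed, and Penk is also transcribed by astrocytes in culture.

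None of the 9 probes passed the test of a strain difference. The Tacr1 and Penk probes were brighter than the median probe on all 6 arrays, and their mean signals were 1.14 and 1.09 times higher in WKY, with overlapping arrays. The Pdyn probe had the largest difference, -0.84 on the log2 scale (SHR minus WKY, as for all differences here), but 1 SHR array lay among the WKY arrays. Of the 9 probes, 4 had a higher mean in SHR and 5 a lower one, and their median difference was -0.07 against -0.01 for all 33249 probes tested. In limma, 0 of the 9 probes had an adjusted p under 0.05, where 0% of all tested probes did, and 0 of the 9 had an unadjusted p under 0.05, where 7.65% of all tested probes did (3.65% higher and 4.01% lower in SHR). At 0 of the 9 probes did the 3 SHR values lie wholly outside the range of the 3 WKY values, against 13.8% of all tested probes. A permutation of 3 against 3 arrays cannot give a two-sided p below 0.1.

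**Figure D1:**
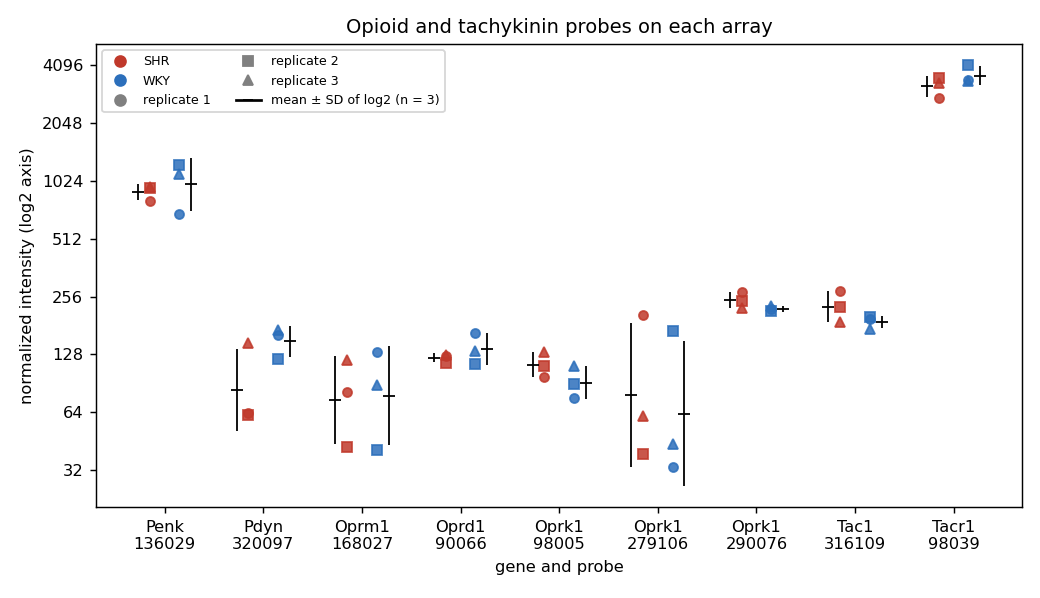
Normalized intensity (log2 axis) of the 9 probes on each of the 6 arrays, SHR in red and WKY in blue, with a symbol for each replicate and black bars for the mean ± SD of log2 values (n = 3). The strains overlap at every probe, and the Oprk1 probe 279106 spans the widest range on this axis, from 33.4 to 205 units.

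Penk, the enkephalin precursor, had intensities of 806, 947 and 954 units in SHR 1, 2 and 3 and of 688, 1240.4 and 1118 units in WKY 1, 2 and 3. The WKY arrays held both the lowest and the highest value, and all SHR values lay between them. The log2 signal was 9.81 ± 0.14 in SHR and 9.94 ± 0.45 in WKY (SD, n = 3), and the difference was -0.13 with a 95% confidence interval from -0.72 to 0.46 (limma, unadjusted p = 0.612, adjusted p = 0.903). The interval leaves out a change of 2-fold in either direction. The pooled SD of this probe, 0.34, was larger than that of 82.8% of probes of like brightness, where the median SD was 0.19 (probes were divided by mean signal into 4 bins of equal size). WKY 1 and WKY 2 pulled the difference in opposite directions, to -0.39 without WKY 1 and to 0.04 without WKY 2.

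Pdyn, the dynorphin precursor, gave a dim spot with 63.7, 62.3 and 147 units in SHR and 161, 121 and 172 units in WKY. SHR 1 and SHR 2 lay below all WKY arrays, while SHR 3 lay within the WKY range. The log2 signal was 6.39 ± 0.71 in SHR and 7.23 ± 0.27 in WKY (SD, n = 3), so that the mean was 1.79 times higher in WKY, with a 95% confidence interval from 0.976 to 3.28 (limma, unadjusted p = 0.0573, adjusted p = 0.655). Without SHR 3 the difference was -1.25 (unadjusted p = 0.00124, adjusted p = 0.528), and without SHR 2 it was -0.63 (unadjusted p = 0.163). The probe ranked between percentiles 8.51 and 28.7 of brightness on its arrays. Probes of the dimmest bin had a median SD of 0.48, against 0.16 in the brightest bin. In the dimmest bin 10.8% of probes reached an unadjusted p under 0.05, and in the brightest bin 4.05% did.

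The receptor of the dynorphins, Oprk1, was represented by 3 probes that differ in how well they repeat. Probe 290076 had 269.8, 244 and 223 units in SHR and 221, 215 and 229 units in WKY. Its SHR arrays stood slightly above the WKY arrays except for SHR 3, which lay below WKY 3, and the difference was 0.14 (95% confidence interval -0.17 to 0.46, unadjusted p = 0.304 in limma). Probe 98005 had 98.1, 112 and 133 units in SHR and 75.7, 89.4 and 112 units in WKY, with a difference of 0.31 (-0.16 to 0.79, unadjusted p = 0.162). SHR 1 and SHR 2 lay within the WKY range there, and SHR 3 above it. Probe 279106 had 205, 39.0 and 61.3 units in SHR and 33.4, 169 and 44.0 units in WKY. One array of each strain stood far above the others of that strain at this probe, and these 2 arrays were SHR 1 and WKY 2. Its difference of 0.33 had an interval from -1.63 to 2.28, and its SD exceeded that of 99.1% of probes in the dimmest bin. All 3 Oprk1 probes had a higher mean in SHR, but the high arrays of probe 279106 were not those of probe 98005, whose highest value was on SHR 3.

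Oprm1, the receptor for morphine, had 81.6, 42.3 and 119.5 units in SHR and 131, 40.8 and 88.7 units in WKY. The arrays of replicate number 2 were the lowest in each strain. The log2 difference was -0.07 with an interval from -1.36 to 1.22 (unadjusted p = 0.902 in limma), so that changes of 2-fold in either direction lie inside it. Oprd1, a receptor of the enkephalins, had 126, 116 and 128 units in SHR and 166, 114 and 134 units in WKY. Its SHR values all lay within the WKY range, and the difference was -0.15 (-0.56 to 0.27, unadjusted p = 0.423). The Oprd1 probe was dim but repeated well, with an SD of 0.20, larger than that of only 4.64% of probes in its bin. The sources used here do not give the level of the negative controls, so the values of these dim spots do not show that the receptors were transcribed in these cultures.

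Tac1, the precursor of substance P, had 273, 226 and 188 units in SHR and 196, 199.6 and 173 units in WKY. SHR 1 and SHR 2 were the highest arrays, and SHR 3 lay within the WKY range. The log2 signal was 7.82 ± 0.27 in SHR and 7.56 ± 0.11 in WKY (SD, n = 3), and the difference was 0.26 (95% confidence interval -0.16 to 0.68, unadjusted p = 0.179, adjusted p = 0.728 in limma). Tacr1, its main receptor, had 2770.35, 3513 and 3307 units in SHR and 3419, 4111 and 3379 units in WKY. SHR 1 was the lowest array, WKY 2 the highest, and the other 4 lay close together with SHR 2 above WKY 1 and WKY 3. The log2 signal was 11.64 ± 0.18 in SHR and 11.82 ± 0.16 in WKY, with a difference of -0.19 (-0.56 to 0.19, unadjusted p = 0.271, adjusted p = 0.775). The differences of ligand and receptor lay on opposite sides of 0, and neither passed the test.

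**Figure D2:**
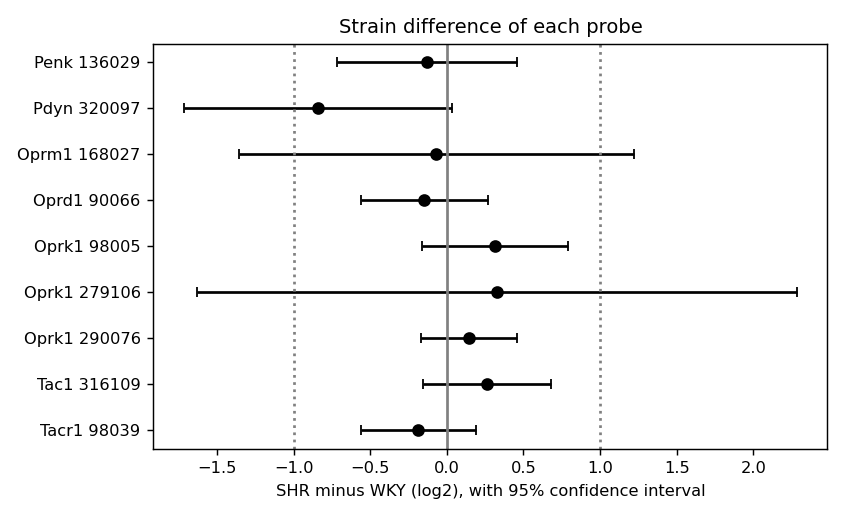
Difference SHR minus WKY (log2) of each probe with its 95% confidence interval from limma, and dotted lines at a change of 2-fold. All 9 intervals include 0, those of Pdyn, Oprm1 and the Oprk1 probe 279106 reach past a 2-fold change, and the other 6 do not.

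The intervals differ in what they exclude. At 6 of the 9 probes, those of Penk, Oprd1, Tac1, Tacr1 and the Oprk1 probes 98005 and 290076, a 2-fold change in either direction lies outside the 95% interval. At the other 3 probes, of Pdyn, Oprm1 and Oprk1 279106, a 2-fold change lies inside it. The intervals bound the signal of a probe. Whether dim spots such as Oprd1 and Oprk1 98005 lay above the negative controls is unknown. Their intervals therefore do not bound a change of the transcript. A robust prior with an intensity trend raised the unadjusted p in limma at Oprd1 from 0.423 to 0.591. At Oprk1 98005 it rose from 0.162 to 0.325. It also rose at Tac1 and Oprk1 290076 and fell at Penk and Tacr1. The signs of Pdyn, Oprd1, Tac1, Tacr1 and of the Oprk1 probes 98005 and 290076 were kept with each array left out in turn, whereas those of Penk, Oprm1 and Oprk1 279106 turned in at least 1 such fit. A kept sign did not mean a stable size. Oprd1 moved to -0.0036 without WKY 1 and -0.28 without WKY 2, and Tacr1 to -0.09 without SHR 1 and -0.10 without WKY 2. Tac1 moved to 0.13 without SHR 1 and 0.40 without SHR 3. Of the Oprk1 probes, 290076 moved to 0.08 without SHR 1, and 98005 to 0.20 without SHR 3 and 0.18 without WKY 1. With unnormalized intensities, where the median of all probes was 0.12, Tacr1 differed by -0.0048. With the same intensities median centred it differed by -0.15.

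**Figure D3:**
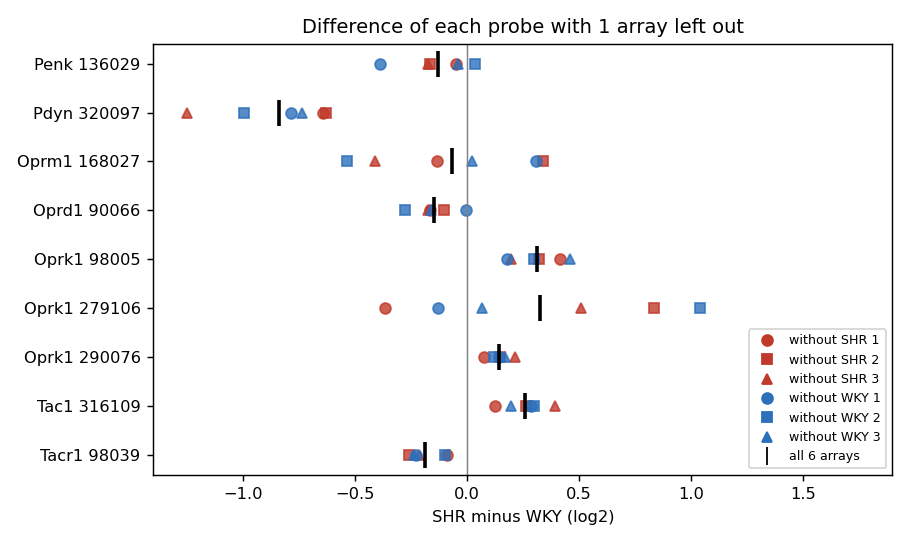
Difference SHR minus WKY (log2) of each probe with all 6 arrays (black bar) and with 1 array left out, coloured by the strain of that array. Pdyn moves between -1.25 and -0.63, the Oprk1 probe 279106 between -0.36 and 1.04, and Tacr1 stays below 0.

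The sequences before the annotated starts of 3 of these genes are shown because Tacr1 had the brightest of the 9 probes, Tac1 is its ligand gene, and Pdyn had the largest difference. They are the 250 bases before the start, on the strand of the gene, from RefSeq annotation of build GRCr8, which gave a sequence for 6 of the 8 gene symbols and none for Penk and Oprk1. Capitals mark matches, searched on both strands, to the core of the cyclic AMP response element (TGACG), to the E-box CACGTG and to the TATA box (TATAAA).
Tacr1, chr4:116478367-116478616 (+ strand): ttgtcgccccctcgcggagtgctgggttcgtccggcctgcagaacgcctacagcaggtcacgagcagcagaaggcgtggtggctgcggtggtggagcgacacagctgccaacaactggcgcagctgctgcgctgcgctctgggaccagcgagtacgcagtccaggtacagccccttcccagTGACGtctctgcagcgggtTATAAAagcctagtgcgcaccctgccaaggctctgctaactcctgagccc
Tac1, chr4:36645333-36645582 (+ strand): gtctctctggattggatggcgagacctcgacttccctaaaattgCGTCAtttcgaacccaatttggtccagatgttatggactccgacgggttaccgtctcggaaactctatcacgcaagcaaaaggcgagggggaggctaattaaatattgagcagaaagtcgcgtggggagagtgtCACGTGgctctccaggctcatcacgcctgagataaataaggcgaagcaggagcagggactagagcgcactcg
Pdyn, chr3:137366504-137366753 (- strand): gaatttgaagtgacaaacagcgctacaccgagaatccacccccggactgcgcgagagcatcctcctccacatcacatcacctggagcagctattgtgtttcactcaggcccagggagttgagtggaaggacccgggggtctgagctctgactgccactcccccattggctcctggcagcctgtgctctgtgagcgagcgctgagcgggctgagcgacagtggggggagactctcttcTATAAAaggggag
The Tacr1 stretch held 1 match to TGACG, which began 69 bases before the start, and 1 to TATAAA, at 50 bases. In the Tac1 stretch 1 match to TGACG began at 206 bases and 1 to CACGTG at 72 bases, and that of Pdyn held 1 match to TATAAA at 13 bases. No matches overlapped. Of 33469 sequences of the same length in the table, 18.2% held TGACG, 5.59% held CACGTG and 12.9% held TATAAA. A match describes these letters only, and the arrays did not measure binding or promoter activity.

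The other genes of the pathways were taken from 7 lists, and each gene was read at its brightest probe. Of 94 tested genes, 3 were higher and 7 lower in SHR at an unadjusted p under 0.05, which is 10.6% of them against 6.84% of the 12082 named genes, and 0 passed an adjusted p of 0.05 in limma. Among all named genes 3.43% were higher and 3.41% lower at that level. The median difference of the 94 genes was -0.07, against -0.0012 for all named genes. The 3 genes higher in SHR were Rgs4, Mc4r and Itpr1, and the 7 lower ones were Tac3, Grk3, Adcy8, Gna11, Fosb, Kcnip3 and Neurod1. The count was 5 without SHR 1, 6 without WKY 2 and 16 without WKY 1.

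**Figure D4:**
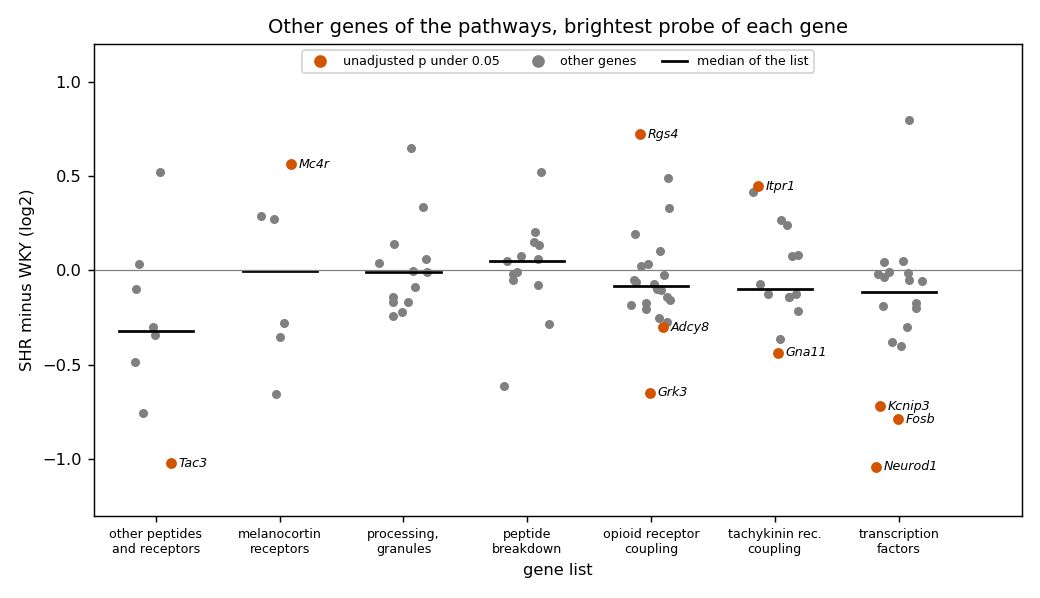
Difference SHR minus WKY (log2) of 94 genes in 7 lists at the brightest probe of each gene, with genes of an unadjusted p under 0.05 in orange and the median of each list as a black line. Rgs4 stands at 0.72 and Neurod1 at -1.04, and the list medians lie between -0.32 and 0.05.

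Rgs4, which speeds up the inactivation of Gi/o and Gq proteins and so shortens the signals of opioid and tachykinin receptors, stood higher in SHR at both of its 2 probes. Its brighter probe had 755, 669 and 759 units in SHR and 432, 431 and 460.01 units in WKY. All SHR arrays lay above all WKY arrays, and the log2 difference was 0.72 ± 0.12 (SE), or 1.65-fold (unadjusted p = 0.000872, adjusted p = 0.297 in limma). The other probe had 660.3, 626 and 743 units in SHR and 346, 384 and 372 units in WKY, again without overlap, with a difference of 0.88 ± 0.13 (unadjusted p = 0.000389, adjusted p = 0.244). Over the alternatives the 2 probes ranged from 0.66 to 0.88 and from 0.80 to 1.03.

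The opioid receptor coupling list, to which Rgs4 belongs, had 1 gene higher and 2 lower at an unadjusted p under 0.05 of 22 tested, with a median of -0.09. Grk3, a kinase that phosphorylates activated receptors, had 161, 188 and 122 units in SHR and 250.4, 218 and 261 units in WKY, and a difference of -0.65 ± 0.19 (unadjusted p = 0.0134, adjusted p = 0.558 in limma), while its other, dimmer probe gave -0.09 ± 0.66. Adcy8, an adenylate cyclase, differed by -0.30 ± 0.12. With unnormalized intensities, where the median of all probes was 0.12, it differed by -0.14 (unadjusted p = 0.441 in limma). With the same intensities median centred it differed by -0.29 (unadjusted p = 0.0548 in limma). In the tachykinin receptor coupling list, 1 of 14 tested genes was higher and 1 lower. Itpr1, the inositol trisphosphate receptor that releases calcium, differed by 0.45 ± 0.17, with SHR wholly above WKY, and Gna11, a G protein of the Gq class, by -0.44 ± 0.18 and by -0.33 ± 0.17 at its other probe. With unnormalized intensities the first Gna11 value was -0.25 (unadjusted p = 0.264), and with these median centred it was -0.39 (unadjusted p = 0.0533 in limma). With the replicate block Adcy8 and Gna11 had unadjusted p of 0.0996 and 0.0656. Without SHR 1 the unadjusted p in limma was 0.117 for Itpr1, 0.121 for Gna11 and 0.0947 for Adcy8. For Adcy8 it lay between 0.0565 and 0.133 with each array left out in turn. For Gna11 it was 0.132 without SHR 3, 0.09996 without WKY 2 and 0.141 without WKY 3. Without SHR 2 that of Gna11 was 0.0275, and without WKY 1 it was 0.0238. That of Itpr1 was 0.0957 without SHR 3, 0.106 without WKY 2 and 0.0893 without WKY 3. It was 0.0148 without SHR 2 and 0.0326 without WKY 1.

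Other peptides and receptors of these families had 0 genes higher and 1 lower at an unadjusted p under 0.05 of 8 tested, and 6 of the 8 differences were below 0, with a median of -0.32. Among all 12082 named genes 6068 differences were below 0, with a median of -0.0012. Tac3, the neurokinin B precursor, gave a dim spot, with 33.9, 35.2 and 67.0 units in SHR and 116, 61.3 and 94.3 units in WKY, so that SHR 3 overlapped with WKY 2. The difference was -1.02 ± 0.35 (unadjusted p = 0.0244, adjusted p = 0.585 in limma), and -0.56 with an offset of 50 units before log2. Its unadjusted p in limma was 0.0782 without SHR 1, 0.0748 without SHR 2, 0.0763 without WKY 1 and 0.0664 without WKY 3. Without SHR 3 it was 0.00488, and without WKY 2 it was 0.0121. The genes that follow were picked with their values in view. Tacr3, the receptor of neurokinin B, had 754, 773 and 650.4 units in SHR and 837, 865 and 979 units in WKY, with no overlap and a difference of -0.30 ± 0.14 (unadjusted p = 0.0694). Pnoc, the nociceptin precursor, differed by -0.48 ± 0.24, and its receptor gene Oprl1 by -0.76 ± 0.39 and, at the other probe, by -0.41 ± 0.31. Both Oprl1 probes were dim, at 37.2 to 134 and 52.7 to 116 units over the 6 arrays. Tac4, which encodes hemokinin, differed the other way by 0.52 ± 0.27 at a dim probe (70.9 to 162 units), and Tacr2, the neurokinin A receptor, by -0.10 ± 0.14.

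Among genes that make and remove the peptides, none had an unadjusted p under 0.05 at its brightest probe in the main limma fit. Of 13 tested genes of propeptide processing and dense-core granules 0 passed and the median was -0.01. The gene of this list with the smallest p was Scg3, a granule protein, at 0.33 ± 0.23 (unadjusted p = 0.191), and it differed by 0.57 without WKY 1 (unadjusted p = 0.0108) and by 0.20 without WKY 3. Cpe, the carboxypeptidase that trims the cut peptides, differed by -0.0016 ± 0.14 and Pcsk2, a convertase of proenkephalin and prodynorphin, by -0.09 ± 0.13, both chosen after their values were seen. Of 13 tested peptidases 0 passed at the brightest probe and the median was 0.05. Anpep, an aminopeptidase that degrades enkephalins, had the smallest p of these, with -0.61 ± 0.27 at its brightest probe and 0.30 ± 0.34 at the other. Without WKY 1 the first of these was -0.90 (unadjusted p = 0.00247, adjusted p = 0.335), and 4 other settings also gave it an unadjusted p under 0.05. Mme, or neprilysin, which cleaves enkephalins and substance P, gave 0.52 ± 0.36 (chosen after its values were seen). Dpp4, a peptidase chosen in the same way, gave 0.21 ± 0.18 at its brightest probe and 0.58 ± 0.45 at the next. Its dimmest probe gave 1.07 ± 0.19 (unadjusted p = 0.00211, adjusted p = 0.386 in limma), where the WKY 2 entry was not above 0 and was left out. Among melanocortin receptors and regulators 1 of 6 tested genes was higher, with a median of -0.0018. It was Mc4r, a receptor for peptides cut from the Pomc product, with 414, 300.2 and 442 units in SHR and 302, 244 and 231 units in WKY (0.56 ± 0.20, unadjusted p = 0.0278, adjusted p = 0.594 in limma). The strains overlapped, as SHR 2 lay just below WKY 1. Its unadjusted p in limma was 0.0823 without SHR 1, 0.0877 without SHR 3, 0.0736 without WKY 2 and 0.0851 without WKY 3. Without SHR 2 it was 0.00743, and without WKY 1 it was 0.0212.

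Transcription factors known at these genes had 0 higher and 3 lower of 18 tested, and a median of -0.12. Kcnip3 encodes DREAM, a calcium-binding repressor known for its action on the prodynorphin gene. Its brighter probe had 239.5, 212 and 206 units in SHR and 387, 326 and 371 units in WKY, without overlap (-0.72 ± 0.14, unadjusted p = 0.00151, adjusted p = 0.349 in limma), while its other probe gave 0.25 ± 0.31 with overlapping arrays. Fosb, an AP-1 subunit, gave a dim spot with 78.6, 88.5 and 85.9 units in SHR and 148, 132 and 158 units in WKY, without overlap at its 1 probe (-0.79 ± 0.13, unadjusted p = 0.000808, adjusted p = 0.297). Its difference was -0.54 with an offset of 50 units before log2. With a robust prior and an intensity trend its unadjusted p in limma was 0.0155. Neurod1 differed by -1.04 ± 0.25 at a dim probe (-0.66 with the offset) and by 0.28 ± 0.57 at the other, where the WKY 3 entry was not above 0 and was left out.

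The cultures held markers of several cell types, with summed levels that overlapped between the strains except for fibroblasts and meninges, at 46906 to 55574 units in SHR and 32683 to 44108 in WKY. In array scores, the mean of each list's centred log2 values, astrocytes (0.05 to 0.08 in SHR and -0.12 to -0.02 in WKY) and microglia (-0.17 to -0.0065 in SHR and 0.0077 to 0.19 in WKY) did not overlap either. Of 16 neuron markers 12 were measured, with 0 values not above 0, and their summed intensity was 56048 to 74371 in SHR and 55397 to 74673 in WKY. Of these 12 markers 8 had a lower mean in SHR and 4 a higher one. The brightest neuron marker, Uchl1, was among the higher ones, at 16603 to 21576 units in SHR and 14804 to 17856 in WKY. The brightest markers of the other lists were Slc1a3 for astrocytes (32392 to 38852 units over the 6 arrays), Cnp for oligodendrocytes, C1qa for microglia, Fn1 for fibroblasts (12977 to 15995 in SHR and 9185 to 12141 in WKY), Flt1 for endothelium and Tbx19 for pituitary cells. Median differences were -0.18 for neurons, 0.06 for astrocytes, -0.76 for the oligodendrocyte lineage, -0.08 for microglia, 0.48 for fibroblasts and meninges, 0.18 for endothelial cells and -0.34 for the 4 measured of 8 pituitary genes, of which 3 lay in the dimmest bin. In RNA of mixed cells, fewer cells of a type and less RNA per cell cannot be told apart. After normalization, log2 values correlated across probes at 0.969 to 0.979 within a strain and at 0.964 to 0.977 between strains.

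Tacr1 and Penk, whose probes were brighter than the median on every array, were set against array scores of the 7 marker lists, which are means of log2 values centred on the 6 arrays. The neuron score was -0.30, 0.27 and -0.29 in SHR and -0.13, 0.36 and 0.10 in WKY. WKY 2 and SHR 2 were highest and SHR 1 lowest in both the neuron score and Tacr1. Over the 6 arrays Pearson's r was 0.81 (exact permutation p = 0.00833, adjusted p = 0.117 over 14 relations) and Spearman's rho 0.94 (exact permutation p = 0.0167, adjusted p = 0.117), and r was 0.84 without the 2 arrays farthest from the median score. Tacr1 also followed the oligodendrocyte score (r = 0.73, exact permutation p = 0.0569, and rho = 0.89, exact permutation p = 0.0333, with r = 0.99 without the 2 farthest arrays) and ran against the endothelial score (r = -0.71, exact permutation p = 0.0764, and rho = -0.94, exact permutation p = 0.0167, with r = -0.99 without the 2 farthest arrays). For the pituitary score r was 0.06 over the 6 arrays and -0.93 without the 2 farthest. Whether the neuron relation differs from these was not tested. None of the 14 relations passed after adjustment. For Penk and the neuron score r was 0.66 and rho 0.60 (exact permutation p = 0.175 and 0.242), and r was 0.35 without the 2 farthest arrays. For Penk and the astrocyte score r was -0.52 and rho -0.43 (exact permutation p = 0.313 and 0.419), and r turned to 0.79 without the 2 farthest arrays. For Penk and the oligodendrocyte score r was 0.33 (exact permutation p = 0.526), and 0.65 without the 2 farthest. With both measures centred on the mean of each strain, a setting added after seeing the data, Tacr1 and the neuron score had r = 0.77 (exact permutation within strains p = 0.194, adjusted p = 0.729), and Penk and the neuron score r = 0.64. Centred likewise, Penk and the astrocyte score had r = -0.79 (exact permutation within strains p = 0.389, adjusted p = 0.729). Centring turned the sign of r for Tacr1 with the microglia score (0.10 to -0.47) and the fibroblast score (-0.21 to 0.62). It also turned the sign for both genes with the pituitary score. The part of cell composition in the members' values was not tested.

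**Figure D5:**
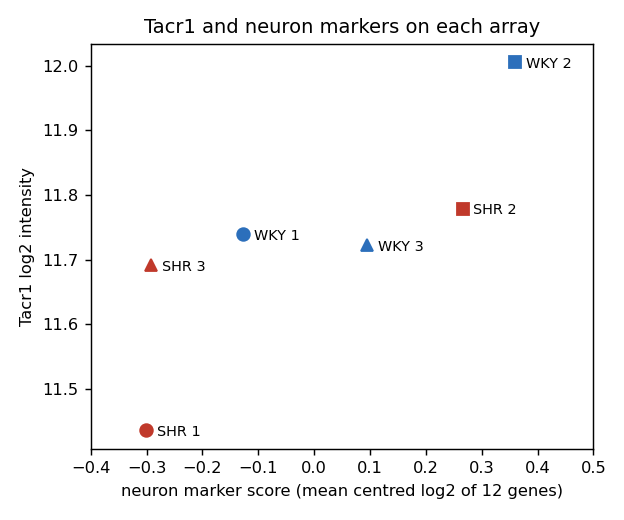
Log2 intensity of Tacr1 against the neuron marker score of 12 genes on each of the 6 arrays, SHR in red and WKY in blue. The points run from SHR 1, lowest on both axes, to WKY 2, highest on both.

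The genes whose pattern over the 6 arrays was most like that of Tacr1, among 10457 probes with 1 symbol and a mean signal at or above the median, were Btf3, a transcription factor (r = 0.99), Lrrk1, a kinase (0.99), Ankrd17 (0.98), Map6, which stabilises microtubules (0.98), and Mef2b (0.97). Of the compared probes, 1.14% reached r above 0.9 with Tacr1. These 5 genes differed between the strains by -0.40 to -0.06 on the log2 scale, none with an unadjusted p under 0.05 in limma.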

How the data were processed

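Per the labels' design text, the authors read background-subtracted intensities from the array images with CodeLink's own software, dropped measurements below the negative controls plus 2 SD, and normalized the arrays by quantiles. No version is named in the sources used here. The authors deposited linear intensity values in a series table, whose 6 columns share a median of 520.3 over values above 0, and in tables per sample, which are not normalized between arrays (medians 461 to 608). The filter on negative controls cannot be seen in either.

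Series table values above 0 were taken as log2 with no offset, and entries not above 0, at most 615 per array, were set to missing. The 33249 probes tested had 3 valid values for a strain and 2 or more for the other. The test was limma 3.58.1 in R 4.3.3 (lmFit, eBayes), two-sided, and p-values were adjusted over all of these probes by Benjamini-Hochberg, with a threshold of 0.05. The test was checked on simulated data. All 9 probes had 6 valid values. Symbols come from the platform annotation, and 16724 probes had an Entrez identifier in the GRCr8 gene table.

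Named genes are all probes of the members and, per list, up to 4 genes of unadjusted p under 0.05 or else the 1 with the smallest p, the 5 genes most like the brightest member, and the brightest marker of each type. Tacr3, Pnoc, Oprl1, Tac4, Tacr2, Cpe, Pcsk2, Mme and Dpp4 fall outside this rule and were chosen after their values were seen. Members and lists were chosen with earlier results of these data known. Alternatives covered normalization, source of values, offset, missing values, probe filters, limma's prior, array weights, the replicate number, the threshold, the probe of a gene and each array left out. Drawing used matplotlib 3.10.9.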

Additional observations from a re-analysis of the deposited data

How the results depend on the processing

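The 9 probes of the members stayed without an adjusted p under 0.05 in all settings run, and the direction was kept in all of them for Pdyn, Oprd1, Tac1, Tacr1 and the Oprk1 probes 98005 and 290076. The Penk difference turned to 0.071 with unnormalized intensities, where the median of all probes was 0.12, and with single arrays left out it ranged from -0.388 to 0.037, above 0 without WKY 2. That of Oprm1 ranged from -0.536 to 0.34, above 0 without SHR 2 (0.34), WKY 1 (0.307) and WKY 3 (0.0246). That of the Oprk1 probe 279106 ranged from -0.364 without SHR 1 to 1.04, and was -0.131 without WKY 1. The number of member probes at an unadjusted p under 0.05 was 0 in limma. It was 1, each time Pdyn, with median-centred intensities (adjusted p = 0.613 in limma), with array weights (0.537) and with the replicate block (0.582). It ranged from 0 to 1 with single arrays left out. The 5 member probes of the dimmest bin have no value without the dimmest 25% of probes.

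Over all probes the count past the threshold was 0 in limma, with 2545 at an unadjusted p under 0.05. It was 13 at an adjusted p of 0.10, 18 without the dimmest 25%, 28 with a robust prior and an intensity trend, 5 with probes valid on all 6 arrays, 5 with array weights, 1 with an offset of 50 units, 1 with values not above 0 set to the smallest value above 0, and 0 with the replicate block and without each array. The 10 pathway genes at an unadjusted p under 0.05 were 6 at the second brightest probe where a gene has several, 10 with the replicate block, of which 8 were among the first 10, and 5 to 16 with single arrays left out. Probes of unadjusted p under 0.05 split into 1212 higher and 1333 lower, against 1542 and 846 in unnormalized and 904 and 1786 in median-centred intensities. Deviations of same-numbered arrays correlated at 0.0011, 0.22 and -0.13 and those of other pairs between -0.25 and 0.27. With 3 arrays per strain, these values cannot decide whether the numbers pair the samples. The cause was not tested for any of these changes. Depth of signal is a limit, with 7 of the 9 probes below the median of brightness.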
